A study of Mus musculus with 9 samples.

Results

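The genes described here are the nuclear-encoded subunits of respiratory complexes II, III, IV and V, with cytochrome c, in mouse heart. They were chosen by name: Sdha to Sdhd, Cycs, Cyc1 and the protein-coding genes whose symbols begin with Uqcr, Cox4i, Cox5, Cox6, Cox7, Cox8 or Atp5. The rule found 50 of the 55401 genes in the count table, of which 4 belong to complex II, 9 to complex III, 1 is cytochrome c, 18 belong to complex IV and 18 to complex V. Of these, 47 passed the filter on low counts and were tested. Cox8c and a second entry named Atp5o had no count in any library. Cox7b2 had between 0 and 10 counts and was not tested.

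The data are 9 RNA sequencing libraries from hearts of the inbred mouse strain C57BL/6, in 3 groups of 3 by treatment label. The mice of the Kmo+Ang II group were given angiotensin II, which constricts vessels and is used to load the heart in animal models, and what Kmo stands for is not explained. The Ang II group was also given it, and the Ctrl group was given PBS, a salt buffer. The sample titles give another grouping by letters that are not explained either. KKA marks the 3 Kmo+Ang II libraries. WA marks Ang II 3, Ctrl 2 and Ctrl 3, and WC marks Ang II 1, Ang II 2 and Ctrl 1, so the letters WA and WC cross the treatment labels. Whether any label or title was wrongly assigned is not known. Dose, duration, sex and age are not given in the labels. Nothing in the labels states that each library is another animal. The p-values therefore measure only how these samples scatter, and that scatter could be technical.

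Complex II passes electrons from succinate to ubiquinone, and complex III passes them on to cytochrome c, a small soluble carrier. Complex IV, cytochrome c oxidase, hands the electrons to oxygen. Complexes III and IV pump protons across the inner mitochondrial membrane, and complex V, ATP synthase, lets them flow back to make ATP. Complex II is encoded wholly in the nucleus, while complexes III, IV and V also hold subunits encoded in mitochondrial DNA. Heart muscle is rich in mitochondria, and complex IV carries muscle forms of several subunits there.

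The promoters of such genes are known for sites of NRF1, of ETS family factors and of the estrogen-related receptors. RefSeq (GRCm38.p6) gave a promoter window for 36 of the 49 distinct symbols, and the 250 bases before each start were searched on both strands, with overlapping matches counted. Some genes had more than 1 window, and a match in any of them counted for the gene. The NRF1 core GCATGCGC occurred in 6 of the 36 genes (16.7%), and in 3.3% of 17492 protein-coding genes with a window. The ETS core CCGGAAG occurred in 9 of the 36 (25.0%, against 10.2% of all), and the receptor core AAGGTCA in 2 of the 36 (5.6%, against 4.2% of all). The 3 windows shown were picked because they belong to genes that stand at different places in the results below: Cycs, which was called in 1 comparison, Sdhb, which lay just outside the threshold, and Cox8b, whose difference was near 0. Capitals mark matches to the NRF1 core, and each window reads 5′ to 3′ on the strand of its gene.
Cycs, chr6:50566570-50566819, minus strand: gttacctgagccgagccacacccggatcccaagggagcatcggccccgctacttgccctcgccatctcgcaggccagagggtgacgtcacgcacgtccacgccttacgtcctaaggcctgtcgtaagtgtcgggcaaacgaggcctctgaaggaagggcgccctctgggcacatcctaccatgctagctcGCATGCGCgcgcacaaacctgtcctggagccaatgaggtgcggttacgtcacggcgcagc
Sdhb, chr4:140961021-140961270, plus strand: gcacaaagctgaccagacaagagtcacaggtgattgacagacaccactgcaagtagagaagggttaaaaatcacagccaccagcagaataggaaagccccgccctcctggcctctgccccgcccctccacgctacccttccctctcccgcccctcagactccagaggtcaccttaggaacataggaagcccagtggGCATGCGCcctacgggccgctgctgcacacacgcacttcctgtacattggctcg
Cox8b, chr7:140900447-140900696, minus strand: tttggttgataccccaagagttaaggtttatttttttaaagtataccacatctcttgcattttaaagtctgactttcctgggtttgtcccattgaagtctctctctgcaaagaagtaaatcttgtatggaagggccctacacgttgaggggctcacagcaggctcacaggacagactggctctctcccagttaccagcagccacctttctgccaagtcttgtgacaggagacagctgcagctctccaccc
The Cox8b window held none of the 3 motifs. A match is a run of letters in a window and does not show that a factor was bound.

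Total counts ran from 56827533 to 73194268 per library. Heart muscle markers were high throughout, with 3143.3 to 8541.0 CPM (counts scaled by library size and TMM factor) of Tnnt2, cardiac troponin T, and 8389.8 to 16348.4 CPM of Myh6, alpha myosin heavy chain. Kmo+Ang II 3 and Ctrl 2 stood apart by the atrial genes Myl7 (469 and 47.7 CPM) and Sln (289 and 35.0 CPM), where the other 7 libraries had at most 0.854 and 0.488 CPM. Acta1, skeletal alpha-actin, which is known to rise in the loaded heart, did not follow the treatment labels: it had 633 CPM in Kmo+Ang II 1, 617 CPM in Ang II 3 and 686 and 678 CPM in Ctrl 2 and Ctrl 3, and 11.3 to 39.6 CPM in the other 5 libraries. Mitochondrially encoded genes took 30.3% to 55.5% of the counts.

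Most of the 47 subunit genes shared their highest and lowest libraries, and both lay within the Kmo+Ang II group. Of the 47, 29 were highest in Kmo+Ang II 1 and 43 were lowest in Kmo+Ang II 3. The median over the 47 genes of the log2 level, relative to each gene's mean over the 9 libraries, was 0.76, -0.15 and -1.18 in the 3 Kmo+Ang II libraries. It was 0.12, -0.50 and 0.57 in the Ang II libraries and -0.16, 0.21 and 0.38 in the Ctrl libraries, so the 3 treatment groups overlapped. The median gene was 4.03-fold higher in its highest library than in its lowest, with a range from 1.52-fold for Cox6a1 to 7.35-fold for Uqcrc2. The median SD over the 9 libraries was 0.61 on the log2 scale, where it was 0.48 over all genes tested. In bulk tissue, fewer heart muscle cells and less RNA of these genes per cell cannot be told apart.

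**Figure D1:**
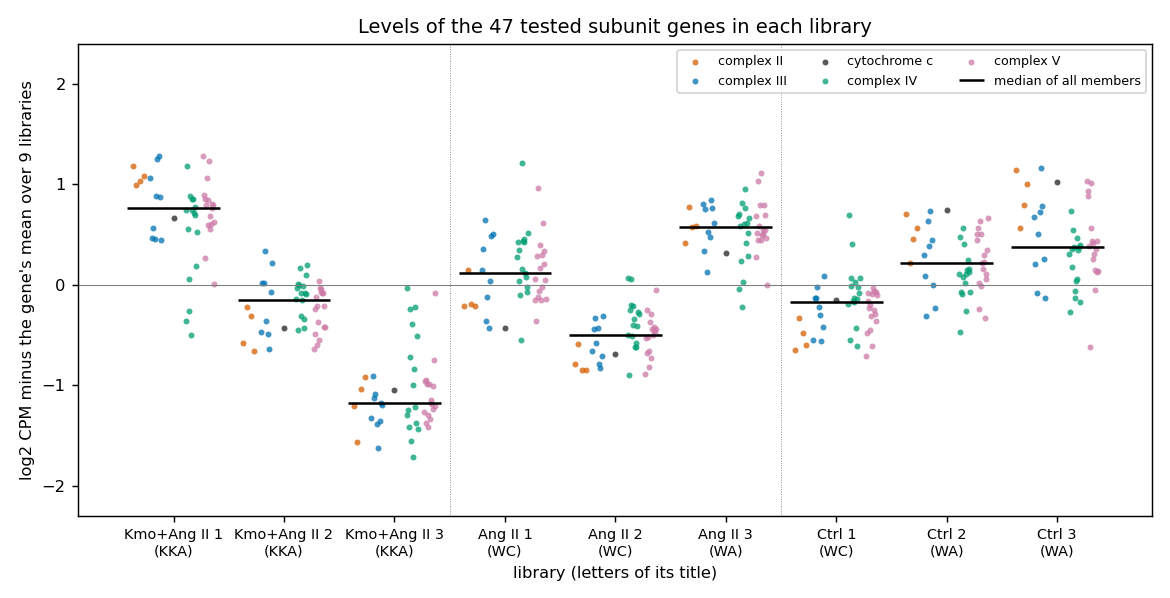
Each point is 1 of the 47 tested subunit genes in 1 library, as log2 CPM minus the gene's mean over the 9 libraries, coloured by complex. Black lines are the medians, which run from -1.18 in Kmo+Ang II 3 to 0.76 in Kmo+Ang II 1.

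Complexes II to V each had their highest median in Kmo+Ang II 1 and their lowest in Kmo+Ang II 3, and differed in the order of the libraries between. Cytochrome c was also lowest in Kmo+Ang II 3 (-1.04), but highest in Ctrl 3 (1.02, against 0.67 in Kmo+Ang II 1). The 4 genes of complex II had a median relative log2 level of 1.06 in Kmo+Ang II 1 and -1.12 in Kmo+Ang II 3, while the 16 complex IV genes had 0.71 and -1.11 there. Together the 50 genes took 2.82%, 1.33% and 0.51% of the counts in the 3 Kmo+Ang II libraries, 2.02%, 1.20% and 2.59% in the Ang II libraries and 1.09%, 1.21% and 1.77% in the Ctrl libraries. The summed mitochondrially encoded counts were 10.8 times the summed counts of the 50 genes in Kmo+Ang II 1 and 109 times in Kmo+Ang II 3. The 8 cardiomyocyte markers had a median relative log2 level of 0.40 in Kmo+Ang II 1 and -0.87 in Kmo+Ang II 3, where the 5 tested atrial markers stood at 6.14 the 7 epicardial markers at 4.94, the 5 tested adipocyte markers at 4.44 and the 8 fibroblast markers at 1.51. The part of these markers in the low subunit levels of Kmo+Ang II 3 was not tested. A few genes kept nearly level. Cox6a1, the widespread form of subunit VIa, stayed between 35.9 and 54.3 CPM in all 9 libraries, and Cox8a, the widespread form of subunit VIII, between 40.4 and 75.8 CPM.

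Between treatment labels, no subunit gene was called. In the fit of all 9 libraries, edgeR's quasi-likelihood test with Benjamini-Hochberg adjustment called 0 of 47 for Ang II minus Ctrl (0.0% of 19091 genes called), 0 of 47 for Kmo+Ang II minus Ang II (0.0%) and 0 of 47 for Kmo+Ang II minus Ctrl (0.0%). None of the 47 had an unadjusted p under 0.05 in any of the 3, and the DESeq2 Wald test and limma-voom also called 0 of them. The median log2 difference over the 47 genes was -0.02 for Ang II minus Ctrl, where all genes had 0.02. It was -0.12 for Kmo+Ang II minus Ang II (all genes 0.03) and -0.14 for Kmo+Ang II minus Ctrl (all genes 0.05). The last 2 medians depended on single libraries: without Kmo+Ang II 1 they were -0.75 and -0.64, and without Kmo+Ang II 3 they were 0.21 and 0.20. Without Ang II 3 the median for Kmo+Ang II minus Ang II was 0.13, and scaled by library size alone that for Kmo+Ang II minus Ctrl was 0.28 (all genes 0.37). Without Kmo+Ang II 3 and Ctrl 2, the libraries with high atrial markers, the 3 medians were 0.0, 0.20 and 0.23, and 0 of 47 were called in each.

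Cox6a2 came nearest to a division by treatment. It encodes the heart and skeletal muscle form of subunit VIa of cytochrome c oxidase. Its levels were 853, 1143.5 and 619 CPM in the Kmo+Ang II libraries and 697, 1063.7 and 875 CPM in the Ang II libraries, against 1351.0, 1511.5 and 1491.7 CPM in the Ctrl libraries. After TMM scaling, every library labelled as given angiotensin II thus lay below every Ctrl library. The share of all genes that divide in this way was not counted. The log2 difference was -0.72 ± 0.34 (SE) for Ang II minus Ctrl (edgeR adjusted p = 0.89) and -0.74 ± 0.34 for Kmo+Ang II minus Ctrl (edgeR adjusted p = 0.998), so neither passed the test. Both comparisons use the same Ctrl libraries. Scaled by library size alone, the first difference was -0.08, where the median of all genes was 0.67. The libraries then overlapped: Ang II 2 had 71560 counts of Cox6a2 in a total of 56827533, and Ctrl 2 had 63374 in 61569672. With TMM scaling and the title letters as a covariate, the difference for Ang II minus Ctrl was -0.70.

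Across all genes tested, 5.74% lay lower without overlap in Ang II than in Ctrl, and Cox6a2 was the only 1 of the 47 subunit genes to do so. Kmo+Ang II lay lower than Ctrl without overlap for Cox6a2 and Cox6b2 (2 of 47, against 2.64% of all genes). It lay lower than Ang II without overlap for Cox6b2 alone (1 of 47, against 2.94% of all genes). Cox6b2, the testis form of subunit VIb, was scarce in these hearts, at 0.550, 0.625 and 0.592 CPM in Kmo+Ang II, 1.80, 0.669 and 0.792 CPM in Ang II and 0.691, 1.03 and 0.747 CPM in Ctrl. Its log2 difference for Kmo+Ang II minus Ang II was -0.89 ± 0.46 (SE, adjusted p = 0.9998 by edgeR), the lowest of the 47, and the highest was 0.34 ± 0.67 for Uqcrc2 (edgeR adjusted p = 0.9998).

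The other genes fixed as markers of the set did not divide by treatment. Cycs, cytochrome c, had 472, 220 and 144 CPM in Kmo+Ang II, 221, 184 and 371 CPM in Ang II and 268, 497 and 603 CPM in Ctrl. Its log2 difference was -0.82 ± 0.49 (SE) for Ang II minus Ctrl (edgeR adjusted p = 0.89), the lowest of the 47, and -0.71 ± 0.49 for Kmo+Ang II minus Ctrl (edgeR adjusted p = 0.998). Uqcrc2, a core protein of complex III, had 526, 157 and 71.6 CPM in Kmo+Ang II, 164, 128 and 306 CPM in Ang II and 179, 368 and 494 CPM in Ctrl. Sdhd, a membrane anchor of complex II, had 192, 57.3 and 47.8 CPM in Kmo+Ang II, 78.2, 50.1 and 136 CPM in Ang II and 59.7, 134 and 182 CPM in Ctrl. For Ang II minus Ctrl, Uqcrc2 had a log2 difference of -0.80 ± 0.68 (SE, adjusted p = 0.915 by edgeR) and Sdhd of -0.51 ± 0.60 (edgeR adjusted p = 0.937). At the other end stood Atp5e, the epsilon subunit of ATP synthase, with 290, 145 and 84.2 CPM in Kmo+Ang II, 327, 117 and 343 CPM in Ang II and 143, 142 and 109 CPM in Ctrl. It had the highest log2 difference for Ang II minus Ctrl, 1.0 ± 0.50 (SE, adjusted p = 0.89 by edgeR), and also the highest for Kmo+Ang II minus Ctrl, 0.40 ± 0.50 (edgeR adjusted p = 0.998).

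**Figure D2:**
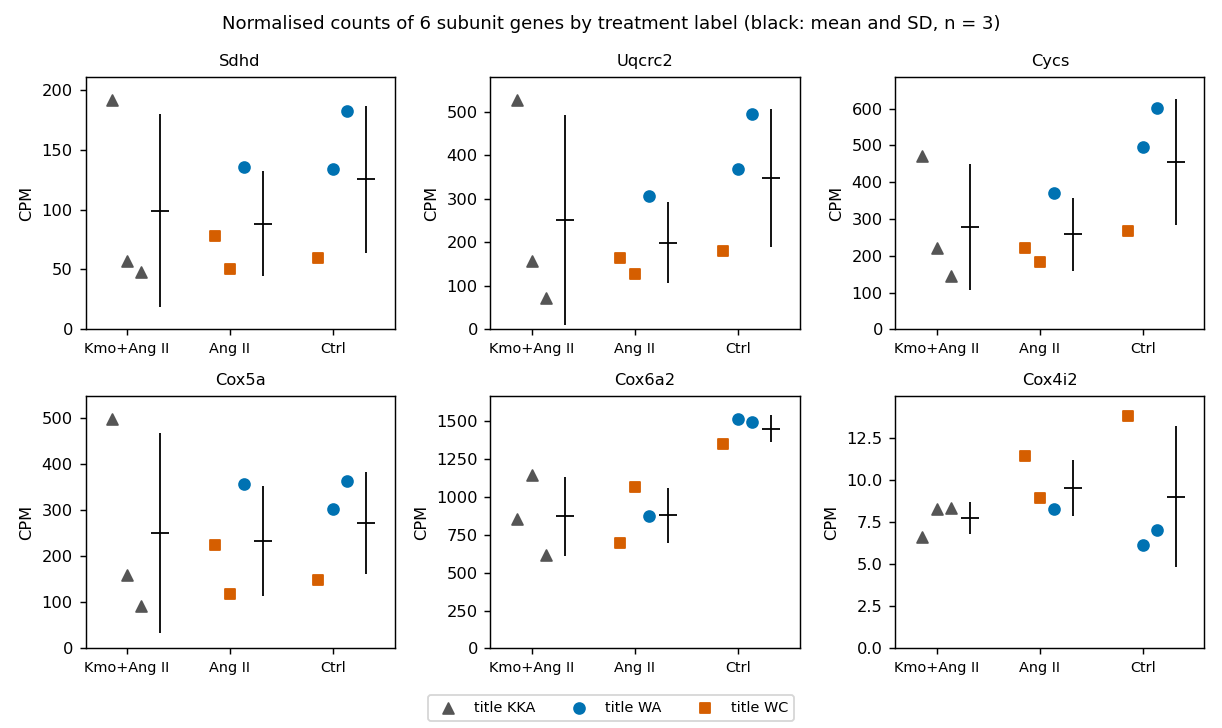
Normalised counts (CPM) of 6 subunit genes in the Kmo+Ang II, Ang II and Ctrl libraries, with the marker shape and colour giving the title letters and black bars the mean and SD of 3 libraries. Sdhd, Uqcrc2, Cycs and Cox5a are higher in every WA library than in every WC library, and Cox4i2 is lower. After TMM scaling, Cox6a2 is lower in every library labelled as given angiotensin II than in every Ctrl library.

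Because the title letters cross the treatment labels, Ang II and Ctrl could also be set side by side within each set of letters, without a test, since each holds 1 library of 1 label and 2 of the other. Cox6a2 was lower in Ang II within both, by 0.78 on the log2 scale in WA (a difference of -0.78) and 0.65 in WC (-0.65), as were Cycs (-0.56 and -0.41), Uqcrc2 (-0.48 and -0.31), Uqcrb (-0.44 and -0.45) and Atp5c1 (-0.21 and -0.36). Uqcrb is an accessory subunit of complex III and Atp5c1 is the gamma subunit of ATP synthase. These are 5 of 47 genes without overlap in both, where 14.4% of all genes tested were lower in both, so the count is no result about the subunits. Within WA, 29 of the 47 genes were higher in Ang II 3 than in both Ctrl libraries (36.9% of all genes) and 9 were lower (34.0% of all genes). Within WC, 1 was higher in both Ang II libraries than in Ctrl 1 (30.2% of all genes) and 8 were lower (30.8% of all genes). Atp5h and Cox4i2, 2 of the 47, moved in opposite directions in the 2 sets without overlap, as did 14.7% of all genes.

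The title letters divided the subunit genes more clearly than the treatment did. In a fit of the 3 WA and the 3 WC libraries alone, edgeR's quasi-likelihood test called 15 of 47 subunit genes, all higher in WA (31.9% of the 47). Of all 18111 genes tested in it, 13.3% were called and 8.06% were called higher. Most of the 47 had a mean log2 CPM of at least 6. Among protein-coding genes at that level, 26.0% of those with transcripts over 765 nt were called higher, and 8.05% of the others. The median log2 difference was 0.51 over the 47 genes and -0.01 over all genes, and 45 of the 47 were positive. In 24 of the 47 every WA library lay above every WC library (17.1% of all genes), and Cox4i2 was the only 1 for which every WA library lay below every WC library (17.6% of all genes). Called were 3 of 4 genes of complex II, 5 of 9 of complex III, cytochrome c, 1 of 16 of complex IV and 5 of 17 of complex V.

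The count of 15 leaned on the samples and on the scaling. In the fit of all 9 libraries, WA minus WC gave 0 of 47 calls (0.0% of 19091 genes), with a median of 0.50, 8 subunit genes at an unadjusted p under 0.05 and a log2 difference for Sdhd of 1.27 ± 0.47 (SE, adjusted p = 0.233 by edgeR). That fit without Kmo+Ang II 1 called 9 (7.98% of all genes). The fit of 6 libraries called 2 without Ang II 2 (2.45% of all genes), 7 without Ctrl 1 (5.41%), 4 without Ctrl 3 (2.77%) and 10 without Ctrl 2 (6.67%). Scaled by library size alone it called 0 (1.28% of all genes), with a median of 0.23 over the 47 and -0.32 over all genes, and the DESeq2 Wald test called 25 (19.1% of all genes). With the treatment label as a covariate it called 15 (10.7% of all genes).

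Other genes also divided WA from WC, in the fit of 6 libraries in which 13.3% of all genes were called and 8.06% were called higher. In that fit 950 of 18111 genes were called lower. All 6 red cell markers were called lower in WA, with a summed level of 116 to 490 CPM in WA and 2945.1 to 7332.3 CPM in WC. Of 6 tested neutrophil markers 2 were called lower (summed level 9.52 to 15.3 CPM in WA and 39.6 to 194 CPM in WC), and of 8 fibroblast markers 4 were called higher (627 to 864 CPM in WA and 466 to 703 CPM in WC). Of 8 cardiomyocyte markers, Actc1, cardiac alpha-actin, was called higher, and their summed level was 30755.1 to 39226.6 CPM in WA and 20386.6 to 27563.3 CPM in WC. Of 6 genes of cardiac hypertrophy, 5 were called higher (Acta1, Ankrd1, Nppb, Nppa and Xirp2), with a summed level of 3905.5 to 5761.7 CPM in WA and 918 to 1338.9 CPM in WC. Called lower were 1 of 8 endothelial markers (Vwf), 1 of 8 of macrophages and monocytes (Csf1r) and 1 of 7 epicardial markers (Wt1), although 5 of those 7 were positive, with a median log2 difference of 0.67. Beside the shares for all genes, a single call among 7 or 8 markers is no result about the cardiomyocyte, endothelial, macrophage or epicardial markers. Called higher were 1 of 4 tested atrial markers (Nppa) and 2 of 5 tested skeletal muscle markers (Acta1 and Ckm), whose other 3 were negative (median -0.08), and 0 of 5 tested adipocyte markers were called. The part of these cells and genes in the subunit differences was not tested.

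In complex II all 4 subunits were higher in WA, and 3 of the 4 were called. Sdhd had 136, 134 and 182 CPM in the WA libraries, against 78.2, 50.1 and 59.7 CPM in the WC libraries, a log2 difference of 1.28 ± 0.22 (SE, adjusted p = 0.00546 by edgeR), the smallest p of the 47. Sdha, the flavoprotein that oxidises succinate, had 323, 395 and 535 CPM in WA, against 210, 140 and 155 CPM in WC. Its log2 difference was 1.32 ± 0.25 (edgeR adjusted p = 0.00784). Sdhc, the partner of Sdhd in the membrane anchor, had a log2 difference of 1.11 ± 0.21 (edgeR adjusted p = 0.00801). Sdhb, the iron-sulfur subunit, whose promoter window is printed above, had 451, 305 and 389 CPM in WA, against 292, 175 and 210 CPM in WC. The groups did not overlap, and its log2 difference of 0.77 ± 0.24 lay just outside the threshold (edgeR adjusted p = 0.0581).

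In complex III the 2 core proteins and the subunits that carry electrons were called, and the small accessory subunits mostly were not. Uqcrc2 had 306, 368 and 494 CPM in WA, against 164, 128 and 179 CPM in WC, a log2 difference of 1.32 ± 0.23 (SE, adjusted p = 0.00638 by edgeR). Uqcrfs1, the Rieske iron-sulfur protein, had 364, 276 and 350 CPM in WA, against 208, 114 and 138 CPM in WC (1.12 ± 0.25, edgeR adjusted p = 0.0152). Uqcrc1, the other core protein, had a log2 difference of 0.82 ± 0.21 (edgeR adjusted p = 0.0256), Cyc1, cytochrome c1, of 0.93 ± 0.26 (edgeR adjusted p = 0.0349), and Uqcrb of 0.75 ± 0.22 (edgeR adjusted p = 0.0478). The 4 others, Uqcrh, Uqcr10, Uqcr11 and Uqcrq, had log2 differences of 0.51, 0.27, 0.08 and 0.02 and were not called. Uqcrq, a small subunit of the complex, had 386, 214 and 229 CPM in WA and 356, 203 and 267 CPM in WC, which overlapped. Cytochrome c was called beside them. Cycs had 371, 497 and 603 CPM in WA, against 221, 184 and 268 CPM in WC, a log2 difference of 1.14 ± 0.24 (SE, adjusted p = 0.0124 by edgeR).

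In complex IV only Cox5a was called. It encodes subunit Va, a matrix-facing subunit, and had 356, 303 and 362 CPM in WA, against 224, 117 and 149 CPM in WC. Its log2 difference was 1.07 ± 0.25 (SE, adjusted p = 0.0177 by edgeR). Cox7a2l, a protein that helps join complexes III and IV into supercomplexes, had 0.68 ± 0.22 (edgeR adjusted p = 0.0658). The muscle forms were not called. Cox6a2 had 875, 1511.5 and 1491.7 CPM in WA and 697, 1063.7 and 1351.0 CPM in WC, a log2 difference of 0.33 ± 0.31 (edgeR adjusted p = 0.514). Cox8b had 0.07 ± 0.27 (edgeR adjusted p = 0.896) and Cox7a1 0.27 ± 0.32 (edgeR adjusted p = 0.617). Cox4i2, the form of subunit IV known from lung and from hypoxia, ran the other way, with 8.27, 6.13 and 7.05 CPM in WA, against 11.4, 8.93 and 13.8 CPM in WC. Its log2 difference was -0.65 ± 0.21 (edgeR adjusted p = 0.0638), so it did not pass the test either.

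In complex V the called genes were the alpha, beta and gamma subunits of the catalytic head, the b subunit of the peripheral stalk and 1 of the 3 genes of the membrane c ring. Atp5f1, the b subunit, had 413, 430 and 557 CPM in WA, against 254, 156 and 202 CPM in WC, a log2 difference of 1.21 ± 0.24 (SE, adjusted p = 0.00966 by edgeR). Atp5c1 had a log2 difference of 1.06 ± 0.22 (edgeR adjusted p = 0.0127), Atp5a1, the alpha subunit, of 1.21 ± 0.30 (edgeR adjusted p = 0.0222), and Atp5b, the catalytic beta subunit, of 0.99 ± 0.27 (edgeR adjusted p = 0.0339). Of the c ring genes, which encode the same mature protein, Atp5g1 was called (0.93 ± 0.23, edgeR adjusted p = 0.0219), and Atp5g3 and Atp5g2 had 0.83 ± 0.35 (edgeR adjusted p = 0.138) and 0.47 ± 0.21 (edgeR adjusted p = 0.156). The delta and epsilon subunits of the head were not called. Atp5d had a log2 difference of 0.31 ± 0.22 (edgeR adjusted p = 0.381), and Atp5e, with 343, 142 and 109 CPM in WA and 327, 117 and 143 CPM in WC, had 0.03 ± 0.56 (edgeR adjusted p = 0.977).

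**Figure D3:**
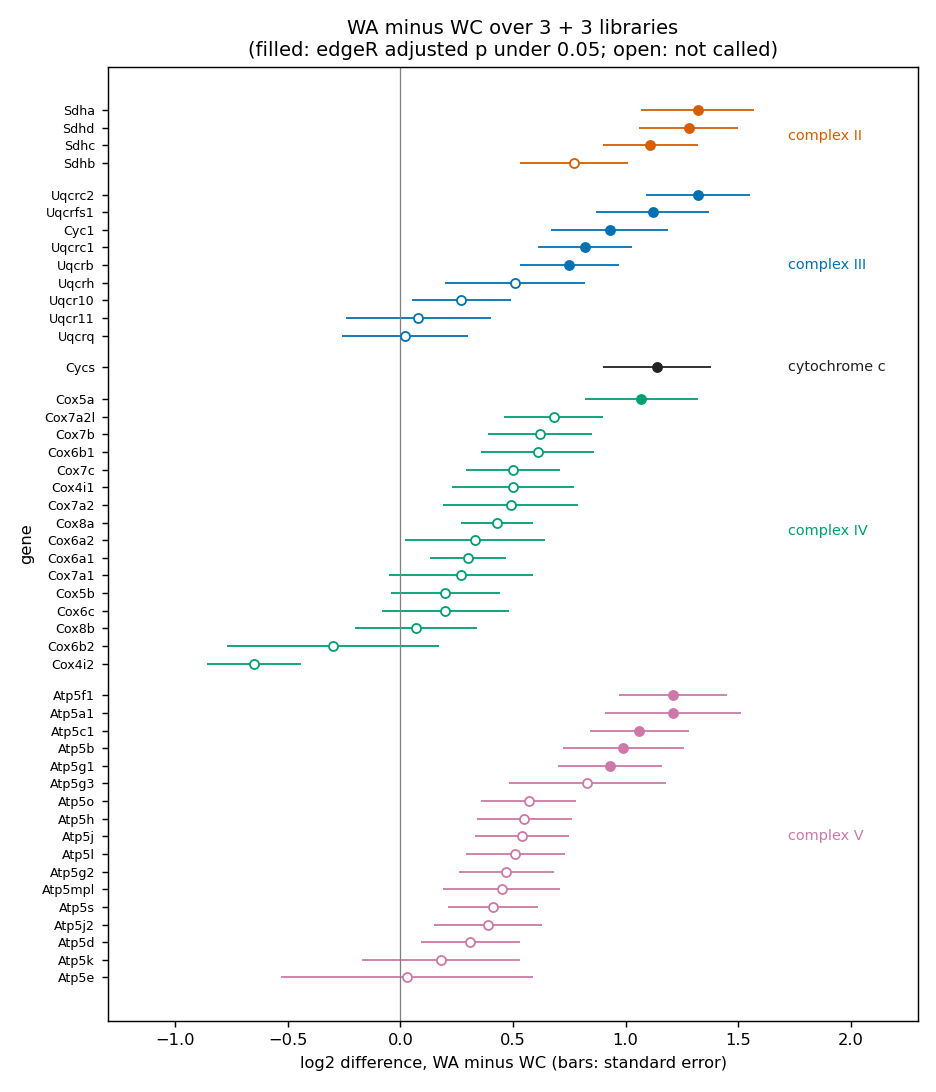
Log2 difference WA minus WC of each tested subunit gene in the fit of 3 WA and 3 WC libraries, with standard error bars, by complex. The 15 filled points passed an adjusted p of 0.05 and lie between 0.75 for Uqcrb and 1.32 for Uqcrc2 and Sdha, while Cox4i2 lies lowest at -0.65.

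The size of the WA minus WC difference went with transcript length among the subunit genes. Over the 47, Spearman's rho between the length of the longest principal transcript (GENCODE M21) and the log2 difference was 0.64. It was 0.73 with the shortest principal transcript and 0.66 with the coding length. Over all protein-coding genes tested it was -0.10, and over those with a mean log2 CPM of at least 6 it was -0.24. Of the 24 subunit genes with transcripts of up to 765 nt, 2 were called (Cox5a and Uqcrb), with a median difference of 0.44, and of the 23 longer ones 13 were called, with a median of 0.93. Among all protein-coding genes, 5.78% of those up to that length and 9.31% of the longer ones were called higher. Among those with a mean log2 CPM of at least 6, the shares were 8.05% and 26.0%. Across the subunit genes these values share the same 6 libraries, so they describe this set and carry no p. Cycs and Sdhc have short coding parts on long transcripts, and Uqcrq and Atp5g1 have principal transcripts of very unequal length. In the other comparisons, which share libraries with it and with each other, rho over the 47 was -0.62 for Ang II minus Ctrl, 0.51 for Kmo+Ang II minus Ang II, -0.56 for Kmo+Ang II minus Ctrl, -0.68 for KKA minus WA and 0.54 for KKA minus WC.

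**Figure D4:**
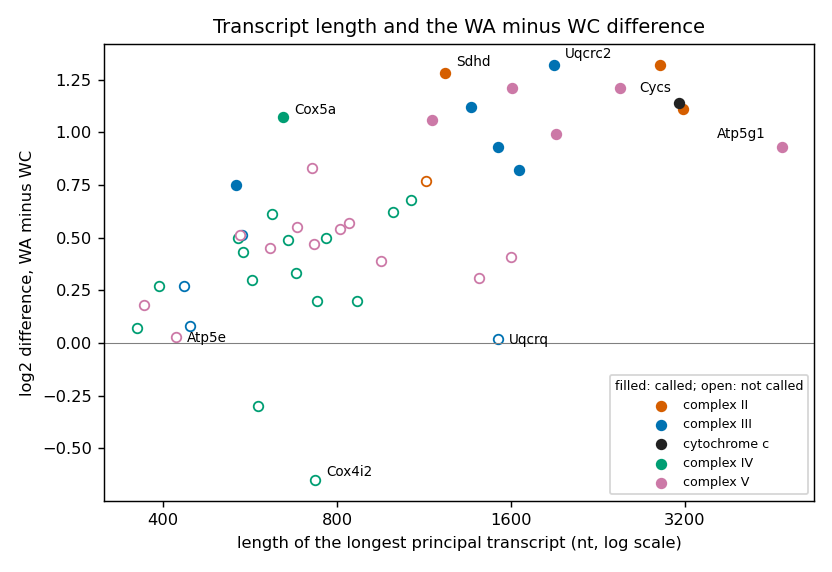
Log2 difference WA minus WC (6 libraries) of the 47 tested subunit genes against the length of the longest principal transcript on a log axis, coloured by complex, with called genes filled. Of the called genes, only Cox5a and Uqcrb lie at or under 765 nt.

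Ratios of paired isoforms within a library need no scaling between libraries. The log2 count ratio of Cox6a2 to Cox6a1, not corrected for length, was 4.27, 4.75 and 4.11 in Kmo+Ang II, 4.14, 4.85 and 4.12 in Ang II and 5.0, 5.24 and 4.78 in Ctrl. Every Ctrl library thus lay above every Kmo+Ang II library, and Ang II 2 overlapped with Ctrl 3. The mean was 4.38 ± 0.33 in Kmo+Ang II and 5.01 ± 0.23 in Ctrl (SD, n = 3 each), a difference of -0.63 (two-sided exact permutation test, p = 0.1, adjusted p = 0.96 over 24 tests). For Ang II minus Ctrl the difference was -0.64 (exact permutation p = 0.2, adjusted p = 0.96). With 3 libraries against 3, no p can go below 0.1. The log2 ratio of Cox4i2 to Cox4i1, the usual form of subunit IV, was -7.13 ± 0.09 in WA and -5.97 ± 0.38 in WC (SD, n = 3 each), a difference of -1.16 without overlap (exact permutation p = 0.1, adjusted p = 0.96). Kmo+Ang II 3 had the lowest ratio of muscle to widespread form for subunits VIa, VIIa and VIII. For VIa the margin was small, at 4.11 against 4.12 in Ang II 3. In Kmo+Ang II 3 the log2 ratio of Cox7a1 to Cox7a2 was 0.06, against 0.56 to 1.38 in the other libraries. That of Cox8b to Cox8a was 0.58, against 0.93 to 2.10.

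Set against the other letters, the KKA libraries gave no calls. KKA minus WA had 0 of 47 calls (0.0% of 19091 genes) and a median log2 difference of -0.39 (all genes 0.05), with 46 of 47 negative. Cycs was lowest at -0.82 ± 0.42 (SE, adjusted p = 0.718 by edgeR) and Cox4i2 highest at 0.11 ± 0.23 (edgeR adjusted p = 0.905). Without Kmo+Ang II 1 the same comparison called 14 of 47 (8.66% of all genes), with a median of -0.90. Without Kmo+Ang II 3 and Ctrl 2 it called 0, with a median of -0.15. KKA minus WC had 0 of 47 calls (0.0% of 19091 genes) and a median of 0.19 (all genes 0.05). Sdha was highest at 0.70 ± 0.52 and Cox6b2 lowest at -0.84 ± 0.47 (edgeR adjusted p = 0.995 for both). Without Kmo+Ang II 1 that median was -0.46, and without Kmo+Ang II 3 and Ctrl 2 it was 0.56. KKA lay below WA without overlap for Cox6b2 (1 of 47, against 2.52% of all genes), and below WC for Cox4i2 and Cox6b2 (2 of 47, against 3.93%).

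Related mitochondrial genes were read beside the subunits. In WA minus WC over 6 libraries, 8.06% of all genes tested were called higher. Of 37 tested assembly factors of complexes II to V, 13 were called in it, all higher in WA, with a median log2 difference of 0.64. Coa5, needed for assembly of complex IV, had the smallest p (1.35 ± 0.18 SE, edgeR adjusted p = 0.00304). Of 36 complex I subunits, 13 were called higher, with a median of 0.60, and Ndufc2 had the smallest p (1.01 ± 0.17, edgeR adjusted p = 0.00538). The 13 regulators of mitochondrial biogenesis were mixed, with 8 positive, 5 negative and a median of 0.18. Of the 13, 4 were called higher. They were Perm1, a muscle regulator induced by PGC-1 (1.20 ± 0.19, edgeR adjusted p = 0.00418), Ppargc1a, which encodes PGC-1alpha itself, Tfam, the mitochondrial DNA packaging factor, and Esrrg, an estrogen-related receptor. Of 10 called subunit genes with a promoter window, 2 held any of the 3 motifs, and of 25 subunit genes not called, 12 did.

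The mitochondrially encoded partners in complexes III to V had another order of libraries than the nuclear subunits. In WA minus WC all 6 were positive, with a median of 0.52, but none was called in the fit of 6 libraries, where mt-Co2 had the smallest p (0.54 ± 0.48 SE, edgeR adjusted p = 0.491). Their median relative log2 level was -0.55, -0.08 and 0.71 in the Kmo+Ang II libraries, -0.81, -0.29 and -0.76 in the Ang II libraries and 0.44, 0.98 and 0.39 in the Ctrl libraries. After TMM scaling, Kmo+Ang II 3 was therefore lowest for 43 of the 47 nuclear subunit genes and second highest for the median of the mitochondrially encoded ones. Every Ang II library lay below every Ctrl library on that median, where 5.74% of all genes tested lay lower without overlap. For Ang II minus Ctrl all 6 were negative, with a median log2 difference of -1.20, and none was called (smallest edgeR adjusted p 0.89).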

How the data were processed

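Per the labels' protocols, RNA was extracted with Trizol and poly(A) selected, and libraries were sequenced in read pairs on an Illumina instrument (its text mentions adipose tissue, while the source label is heart). The authors deposited whole-number counts per Ensembl gene, neither scaled for depth nor for length. The tools named are Bowtie 0.12.2, StringTie 1.3.0 and HISAT2 2.0, and the build mm8, per the submitters' processing notes. What each did, how counting was done and whether it used strand is not given in the sources used here. Symbols were matched for 55141 of 55401 genes. Gene coordinates are not given, as the annotation used here (GENCODE M21, GRCm38) is of another build.

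R 4.3.3 and edgeR 4.0.16 were used for the tests (TMM, filterByExpr, robust quasi-likelihood F test, Benjamini-Hochberg over all genes tested, call at an adjusted p under 0.05). There were 3 fits: 9 libraries by treatment label, 9 by title letters, and the 6 WA and WC libraries. Each standard error is the difference divided by the root of its F, so it restates the test. Relative levels use log2 CPM with a prior count of 2, and isoform ratios add 0.5 to each count. Alternatives used DESeq2 1.42.0 and limma 3.58.1, other scalings and filters, left-out libraries and a covariate for the second grouping. Before use, the model scripts were tested on simulated counts.

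The members, gene lists and comparisons were chosen with earlier results of these data known, and some lists share genes with each other (Nppa and Acta1 stand in 2 each). Genes were named by a rule: the markers Sdhd, Uqcrc2, Cox6a2 and Cycs, the tissue isoforms, the c ring genes, and in a comparison the highest, lowest and smallest p; only part of them is printed. The inhibitor of ATP synthase has the symbol Atpif1 here and is no member. The name rule also matched 8 processed pseudogenes, which were left out; Cox6c2 among them had 313 to 1370 counts. Reads shared between such copies and their parent genes, or between the 3 c ring genes, may be split, so those values are uncertain.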

Additional observations from a re-analysis of the deposited data

Results flagged for a closer look

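For 2 of the 47 genes, the difference between Ang II and Ctrl libraries had opposite signs within the 2 sets of title letters, with no overlap in either, a pattern that 14.7% of all genes tested showed. Atp5h, the d subunit of the peripheral stalk of ATP synthase, was higher in Ang II within WA, by 0.21 on the log2 scale, with 786 CPM in Ang II 3 and 622 and 744 CPM in Ctrl 2 and Ctrl 3. Within WC it differed by -0.13, with 504 and 455 CPM in Ang II 1 and Ang II 2 and 523 CPM in Ctrl 1. Cox4i2 was higher in Ang II within WA by 0.33, with 8.27 CPM in Ang II 3 and 6.13 and 7.05 CPM in Ctrl 2 and Ctrl 3, and differed by -0.45 within WC, with 11.4 and 8.93 CPM in Ang II 1 and Ang II 2 and 13.8 CPM in Ctrl 1. The difference between the 2 sets was not tested.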

How the results depend on the processing

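In the treatment comparisons, 0 of 47 subunit genes were called under every alternative run, and at most 0.0471% of all genes were. Called members of WA minus WC over 6 libraries numbered 15 (13.3% of all genes called). They numbered 14 to 17 with DESeq2 size factors, without mitochondrially encoded genes, with other filters, with limma-voom or with the treatment covariate. The share of all genes called in those settings ran from 8.11% to 20.1%. They numbered 25 with the DESeq2 Wald test (19.1% of all genes) and 0 with library size only (1.28%). With a library left out they ran from 2 (2.45% of all genes) to 21 (13.0%). For WA minus WC over 9 libraries, 0 rose to 15 (13.3% of all genes) when only the groups compared were fitted. With a library left out the count ranged from 0 to 9 (7.98% of all genes). For KKA minus WA that range was 0 to 14 (8.66% of all genes). Library size as the only scaling gave medians of 0.66 for Ang II minus Ctrl and 0.23 for WA minus WC in both fits, because it shifts all genes (by 0.67, and by -0.33 and -0.32).

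Among the printed differences, signs changed only for genes that were not called, and the cause was not tested. With library size only, Sdhd for Ang II minus Ctrl was 0.17, and in WA minus WC over 6 libraries Atp5e was -0.20, Cox8b -0.19, Uqcrq -0.23 and Cox6a2 -0.01. With limma-voom, Uqcrc2 for Kmo+Ang II minus Ang II was -0.09. In WA minus WC over 6 libraries, limma-voom gave -0.01 for Atp5e and 0.00 for Uqcrq, and a filter of 1 CPM in 3 libraries gave 0.00 for Uqcrq. Without Ctrl 2 and Kmo+Ang II 3, Cox4i2 for KKA minus WA was -0.05. With 1 library left out, or both Ctrl 2 and Kmo+Ang II 3, Uqcrc2 for Kmo+Ang II minus Ang II ranged from -0.80 to 0.79. Over the same settings, Atp5e for Kmo+Ang II minus Ctrl ranged from -0.20 to 0.80 and Sdha for KKA minus WC from -0.33 to 1.09. In WA minus WC over 6 libraries, with 1 library left out, Atp5e ranged from -0.62 to 0.64, Cox8b from -0.24 to 0.32 and Uqcrq from -0.29 to 0.26. No paired analysis was possible because the groups share no replicate numbers in the labels. Counting depth limits Cox6b2 and Cox7b2, at 30 to 153 and 0 to 10 counts.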

Other observations

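Cox7b2, the testis form of subunit VIIb, was too scarce to be tested. It had 7, 7 and 0 counts in the Kmo+Ang II libraries and 7, 9 and 10 counts in the Ang II libraries, against 0, 0 and 0 counts in the Ctrl libraries. It was singled out after its values were seen. Of the 19091 genes tested, 1229 lay higher without overlap in Ang II than in Ctrl. Counts this low are no result about the treatment.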
